A study of Homo sapiens with 6 samples.

Results

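The genes described here are ZFAS1 and 9 further noncoding genes that carry small nucleolar RNAs (snoRNAs) in their introns: GAS5, SNHG1, SNHG5, SNHG6, SNHG8, SNHG12, SNHG15, SNHG16 and SNHG29. They were taken by symbol from the 62260 gene rows of the deposited files, and all 10 symbols were found. The study sequenced total RNA of TYK-nu, a human ovarian cancer cell line, in 2 groups of 3 libraries each: ZNFX1 KO cells, in which ZNFX1 had been knocked out, and wild type (WT) cells. Both groups were grown in the same medium without drug, and the labels give all libraries the same batch and call them biological replicates. The labels name no second KO clone and no method of knockout, so loss of ZNFX1 and any other way in which the KO cells differ from WT cells cannot be told apart. Separate cultures are not stated beyond that, so each p-value measures the spread among libraries, which may be technical. The files list Salmon's estimated fragments, with gene rows and, apart from them, 134909 transcript rows that had not been added to a gene.

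A snoRNA host gene is transcribed and spliced like other genes, and its snoRNAs are cut out of the removed introns. The box C/D snoRNAs guide methylation of ribosomal RNA and the box H/ACA snoRNAs guide its conversion of uridine to pseudouridine. What is left, the spliced host RNA, often codes for no long protein, and several host RNAs, GAS5 among them, are known to be removed by nonsense-mediated decay (NMD) when translated. Many host genes also begin with a 5′ terminal oligopyrimidine (TOP) tract, a run of C and T that couples translation to growth signals in ribosomal protein mRNAs.

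ZFAS1 stands head to head with ZNFX1, the gene that was knocked out. ZNFX1, a zinc finger protein with a helicase domain that takes part in antiviral defence, lies on the minus strand of GRCh38 at chr20:49237946-49278426. ZFAS1 lies on the plus strand at chr20:49278178-49295738, so that the genes share 249 bases at chr20:49278178-49278426. The libraries were made with a stranded kit, per the labels, but whether the counting used strand is not given in the sources used here. Fragments of ZFAS1 and ZNFX1 in the shared bases therefore may not have been told apart, and the same holds for the overlaps of GAS5 with ZBTB37, SNHG6 with MCMDC2, SNHG12 with TRNAU1AP and SNHG29 with LRRC75A.

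The ZFAS1 transcripts listed in the files begin mainly at a pair of start sites 464 bases apart. The first 50 bases of the most abundant transcript of each site are printed, because the sites differ in where they stand to ZNFX1 and in their first bases. ZFAS1-204 (chr20:49278642-49289260, plus strand, GRCh38, GENCODE 29) starts beyond the end of ZNFX1. ZFAS1-205 (chr20:49278178-49289260, plus strand) starts inside the 5′ end of ZNFX1. Capitals mark a C at the first base with the pyrimidines that follow it, where the run has at least 5 bases.
ZFAS1-204: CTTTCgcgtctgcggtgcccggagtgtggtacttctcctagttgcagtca
ZFAS1-205: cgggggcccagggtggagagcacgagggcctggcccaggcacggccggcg

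The 3 snoRNAs of ZFAS1 are shown because they are the intron products by which the gene counts as a host. SNORD12C (chr20:49278940-49279028), SNORD12B (chr20:49280319-49280409) and SNORD12 (chr20:49280683-49280772) all lie on the plus strand, in the order given. Capitals mark the first TGATGA, the form of box C, and the last CTGA, the form of box D. Besides the boxes, all 3 share the run cagatcgac of 9 bases.
SNORD12C: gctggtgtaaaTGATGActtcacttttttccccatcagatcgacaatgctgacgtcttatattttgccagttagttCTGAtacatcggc
SNORD12B: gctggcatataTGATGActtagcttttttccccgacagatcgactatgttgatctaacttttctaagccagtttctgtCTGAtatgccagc
SNORD12: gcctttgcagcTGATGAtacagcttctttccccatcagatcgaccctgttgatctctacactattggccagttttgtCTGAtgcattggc

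RefSeq's promoter table (GRCh38.p14) held an entry for 8 of the 10 genes, all but SNHG6 and SNHG15. The 60 bases around the start are printed for the 4 that hold TATAA, the core of the TATA box. They are also printed for GAS5, which holds none at the start that RefSeq gives. Capitals mark TATAA between -40 and -16 and a C-led run of at least 5 pyrimidines at the start base, as in a TOP tract.
ZFAS1 (chr20:49278602-49278661, plus strand): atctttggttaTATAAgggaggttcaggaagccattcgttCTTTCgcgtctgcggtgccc
SNHG5 (chr6:85678714-85678773, minus strand): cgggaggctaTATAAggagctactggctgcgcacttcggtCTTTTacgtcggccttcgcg
SNHG8 (chr4:118278722-118278781, plus strand): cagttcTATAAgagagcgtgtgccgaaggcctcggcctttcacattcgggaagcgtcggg
SNHG12 (chr1:28581854-28581913, minus strand): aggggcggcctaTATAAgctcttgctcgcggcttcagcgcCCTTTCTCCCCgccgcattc
GAS5 (chr1:173869026-173869085, minus strand): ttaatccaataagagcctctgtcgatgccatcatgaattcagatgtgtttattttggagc

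TATAA stood in that window in 4 of the 8 promoters, against 3.91% of all 35116 promoters of the table. On the other strand it stood in 1 of the 8, against 1.73% of all. The C-led run at the start base, read on the gene's strand, was found in ZFAS1, SNHG5 and SNHG12, 3 of 8, against 4.07% of all promoters. The same 3 genes held both, against 0.0940% of all. The ZFAS1 promoter of the table belongs to the site of ZFAS1-204. These matches describe letters at the start that RefSeq gives, and draw on no value of the libraries. For GAS5 that start, chr1:173869045, lies outside the gene's span in GENCODE 29, chr1:173863900-173868882. The bases printed for GAS5 therefore do not describe the first bases of its GENCODE 29 transcripts.

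The knocked-out gene checks the labels only in part. ZNFX1 had 102, 70.4 and 75.0 CPM (fragments relative to the library's total, scaled by TMM) in ZNFX1 KO libraries 1 to 3, against 129.6, 208 and 109 CPM in WT libraries 1 to 3. All KO values were below all WT values, but the difference was not called at an adjusted p under 0.05 (log2 fold change, here log2FC, KO over WT, -0.85, SE 0.27, quasi-likelihood test of edgeR, adjusted p = 0.218). Without WT 3 it was called, with a log2FC of -1.01 (edgeR adjusted p = 0.0468), and without WT 2 it was -0.53 (edgeR adjusted p = 0.507). Without WT 3, however, 4.93% of all gene rows tested passed as lower. The libraries held between 21413002 and 23494771 fragments. Of the leukocyte markers, PTPRC was at 0 fragments in all 6 libraries, CD3E and CD14 were at 0 to 0.0970 CPM, and LYZ was at 2.93 to 8.14 CPM in the KO and 0.437 to 2.82 CPM in WT, ranges that did not overlap. The 4 fibroblast markers summed to 0.260 to 0.503 CPM in the KO and 0.0558 to 0.455 CPM in WT, with LUM at 0 in all libraries. The 7 ovarian carcinoma markers summed to 138 to 212 CPM in the KO and 125 to 139.5 CPM in WT, most of it KRT18. Of the others, KRT8 was at 10.7 to 19.9 CPM in the KO and 11.4 to 37.2 CPM in WT, and the gene WT1 at 4.49 to 6.54 CPM in the KO and 3.72 to 6.97 CPM in WT. EPCAM was at 0 in all KO libraries and at 0.241 to 1.71 CPM in WT, MUC16 was at 0 in all libraries, and PAX8 and CDH1 were at or near 0. The 4 endothelial markers PECAM1, CDH5, VWF and TIE1 summed to 1416 to 1515 CPM in the KO and 1253 to 1519 CPM in WT. PECAM1 was at 320 to 424 CPM in the KO and 183 to 617 CPM in WT. CDH5 was at 441 to 605 CPM in the KO and 437 to 517 CPM in WT. TIE1 was at 452 to 579 CPM in the KO and 375 to 624 CPM in WT. VWF was only at 9.51 to 22.5 CPM in the KO and 8.88 to 15.8 CPM in WT. The endothelial sum stood above that of the ovarian carcinoma markers, and what this means for the label was not tested. The part of these markers in the results was not tested.

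Per length, the 10 genes ran over about 2 orders of magnitude in TPM, Salmon's measure of level divided by length and by library total (gene and transcript rows summed). GAS5 was the highest, with 414 ± 34.0 TPM in the KO and 489 ± 150 TPM in WT (SD, n = 3 each, as in all means here). ZFAS1 came next, with 199 ± 20.4 TPM in the KO and 216 ± 58.1 TPM in WT. Averaged over the 6 libraries, SNHG6 stood at 100.2 TPM, SNHG8 at 62.1, SNHG29 at 54.0, SNHG15 at 24.3, SNHG12 at 24.1, SNHG1 at 18.7, SNHG16 at 6.53 and SNHG5 at 3.65 TPM. The ranges over 6 libraries lay apart between GAS5 and ZFAS1, between ZFAS1 and SNHG6, between SNHG29 and SNHG15 and between SNHG1 and SNHG16. All other neighbours in this order overlapped. In bulk RNA a lower level in each cell and fewer cells that express the gene cannot be told apart.

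**Figure D1:**
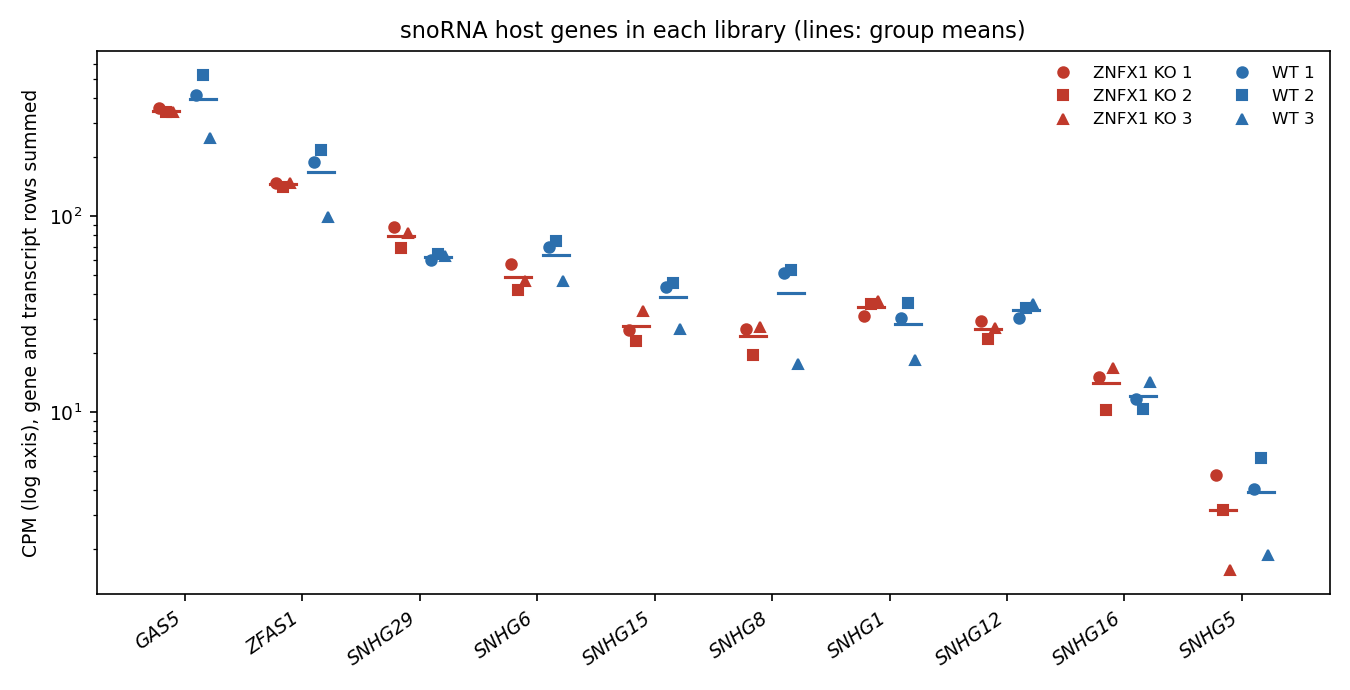
CPM of each gene in each library, gene and transcript rows summed, on a log axis, with ZNFX1 KO left of WT and a line at each group's mean. The KO points of GAS5 (342 to 355 CPM) and ZFAS1 (140.5 to 148 CPM) lie inside the range of the WT points (252 to 523 CPM and 99.0 to 217 CPM).

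ZFAS1 did not differ between the groups beyond the spread of its libraries, in its gene row or in its transcripts. Its gene row had 25.9, 20.9 and 18.4 CPM in ZNFX1 KO 1 to 3, against 24.3, 28.9 and 17.4 CPM in WT 1 to 3. The groups overlapped, and the log2FC was -0.11 (SE 0.23, adjusted p = 0.840), with p = 0.8 in the exact two-sided permutation test of CPM, which with 3 against 3 libraries cannot go below 0.1. That row, however, held only 13.7 ± 2.35% of the fragments of ZFAS1 in the KO and 13.3 ± 2.45% in WT. With the transcript rows added, ZFAS1 had 148, 140.5 and 148 CPM in ZNFX1 KO 1 to 3, against 190.1, 217 and 99.0 CPM in WT 1 to 3. The KO libraries lay close together and WT 3 and WT 2 lay on either side of them. The log2FC of the summed rows was -0.22 (SE 0.27, edgeR adjusted p = 0.699; exact permutation p = 0.5). Without WT 2 it was 0.0054, and without WT 3 it was -0.47 (edgeR adjusted p = 0.0817).

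The transcript rows show where the RNA of ZFAS1 was counted. ZFAS1-204, listed as ENST00000428008.6 where GENCODE 29 has version 5, held 109, 129 and 116 TPM in ZNFX1 KO 1 to 3, against 138, 179 and 92.7 TPM in WT 1 to 3. It made up 59.4 ± 0.944% of the TPM of ZFAS1 in the KO and 62.7 ± 3.59% in WT. Per library these shares were 60.3, 58.4 and 59.6% in the KO, against 60.7, 66.8 and 60.4% in WT. They did not overlap and were lower in the KO, though ZNFX1 KO 1 and WT 3 lay next to each other. How often such shares lie apart over all transcripts was not computed. The log2FC of ZFAS1-204 was -0.28 (SE 0.32, edgeR adjusted p = 0.880, every row tested as a feature). ZFAS1-205 (ENST00000441722.5), from the site inside ZNFX1, had 38.5, 37.6 and 45.6 TPM in the KO, against 55.0, 59.8 and 33.2 TPM in WT. Its groups overlapped too (log2FC -0.34, SE 0.33, edgeR adjusted p = 0.854). ZFAS1-203 (ENST00000417721.5), which shares that site, was at 4.88 ± 0.688 TPM in the KO and 4.65 ± 0.886 TPM in WT.

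One minor transcript ran the other way. ZFAS1-201 (ENST00000326677.9), which begins at the site of ZFAS1-204, had 10.7, 31.8 and 14.4 TPM in ZNFX1 KO 1 to 3, against 13.1, 5.62 and 7.84 TPM in WT 1 to 3. The groups overlapped at ZNFX1 KO 1 and WT 1, and the log2FC was 1.00 (SE 0.49, adjusted p = 0.677). Its share of the TPM of ZFAS1 was 5.94, 14.4 and 7.35% in the KO, against 5.74, 2.10 and 5.12% in WT. These shares did not overlap, though ZNFX1 KO 1 and WT 1 lay next to each other. How often such shares lie apart over all transcripts was, as above, not computed. ZFAS1-207 (ENST00000458653.5) held 0 to 15.6 fragments a library and was too low to test.

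Summed by start site, the site beyond ZNFX1 held 66.2, 72.8 and 66.9% of the TPM of ZFAS1 in ZNFX1 KO 1 to 3, against 66.5, 68.9 and 65.6% in WT 1 to 3. The site inside ZNFX1 held 23.6, 19.4 and 26.0% in the KO, against 26.6, 24.1 and 24.0% in WT. Both sets of shares overlapped. Of the 5 ZFAS1 rows tested as features of their own (4 transcripts and the gene row), 0 passed the threshold and 0 had an unadjusted p under 0.05. Over all 36792 rows tested that way, 0.00544% passed and 7.92% had an unadjusted p under 0.05. Salmon shares fragments out among overlapping transcripts by estimate, so the rows of ZFAS1 are less certain than their sum.

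**Figure D2:**
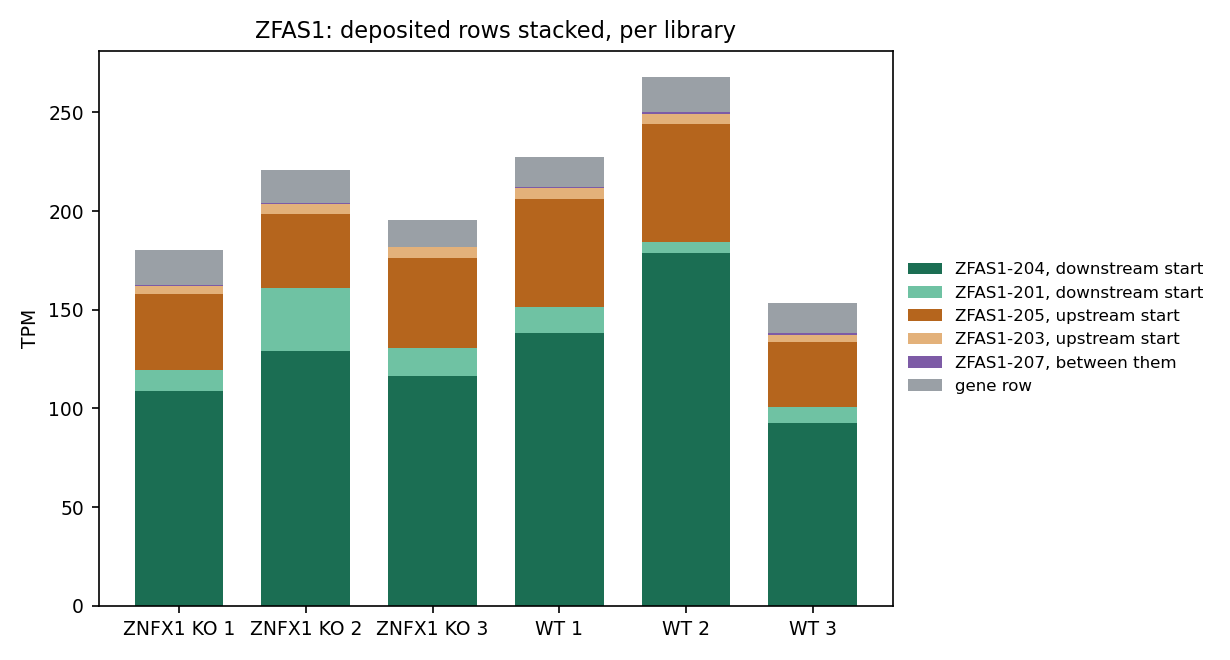
TPM of each deposited ZFAS1 row, stacked for each library, with the ZNFX1 KO libraries left of the WT libraries. Green rows begin at the downstream site and brown rows at the upstream site. ZFAS1-204 is the tallest part of every bar (92.7 to 179 TPM), and the gene row, in grey, reaches 13.8 to 17.8 TPM.

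GAS5, named for its rise in growth-arrested cells and best known as an NMD-sensitive host of box C/D snoRNAs, likewise did not differ between the groups beyond the spread of its libraries. Its gene row had 305, 286 and 295 CPM in ZNFX1 KO 1 to 3, against 390.0, 546 and 218 CPM in WT 1 to 3. The KO values lay within the WT range, with a log2FC of -0.38 (SE 0.30, adjusted p = 0.557). With its transcript rows GAS5 had 346 ± 7.61 CPM in the KO and 397 ± 137 CPM in WT, a log2FC of -0.20 (SE 0.25, adjusted p = 0.711) that was 0.05 without WT 2. Its transcript rows alone had 1681, 1716 and 1496 fragments in the KO, against 1296, 654 and 1264 in WT. All 8 GAS5 transcripts tested had log2FC values above 0 while that of the gene row was below 0. Except for ENST00000449589.6 and ENST00000443799.5, their SE was 1.33 to 2.24 and each was at 0 in at least 1 library. None of the 8 passed the threshold, and 1 of them, ENST00000449589.6, had an unadjusted p under 0.05 (log2FC 0.51, SE 0.19, edgeR adjusted p = 0.596, named after its values were seen). Over all 36792 rows tested, 0.00544% passed, 7.92% had an unadjusted p under 0.05 and 50.4% had a log2FC below 0.

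SNHG29, also called LRRC75A-AS1 and host of SNORD49A, SNORD49B and SNORD65, turned its direction when the transcript rows were added. The gene row had 16.4, 11.6 and 12.7 CPM in ZNFX1 KO 1 to 3, against 19.9, 26.4 and 12.7 CPM in WT 1 to 3, a log2FC of -0.53 (SE 0.28, adjusted p = 0.401). The transcript rows had 1629, 1257 and 1469 fragments in the KO, against 884, 889 and 1218 in WT. Summed, SNHG29 had 87.6, 68.7 and 81.7 CPM in the KO, against 59.4, 64.4 and 62.3 CPM in WT. Every KO library then lay above every WT library, at a log2FC of 0.35 (SE 0.16, adjusted p = 0.304) that was not called. The gene row's share of the fragments of SNHG29 was 17.2, 15.5 and 14.2% in the KO, against 30.7, 37.0 and 18.6% in WT. These shares did not overlap, but how often such shares lie apart over all genes was not computed. Of its 7 transcript rows tested, 6 had a log2FC above 0 and 0 passed. Of all rows tested, 50.4% were below 0 and 0.00544% passed.

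SNHG1 carries several box C/D snoRNAs, among them SNORD22, SNORD25 and SNORD26, and little of it was in its gene row. That row had 108, 22.2 and 14.5 fragments in ZNFX1 KO 1 to 3, against 0, 5.80 and 9.01 fragments in WT 1 to 3. Every KO library lay above every WT library, and the fitted log2FC was 3.27 (SE 0.99, adjusted p = 0.198). It passed the threshold with the DESeq2 Wald test (log2FC 3.32, adjusted p = 0.020) and with edgeR and no filter on low counts (3.30, adjusted p = 0.0131). Of all gene rows tested, 1.67% passed as higher with the Wald test and 0.91% with no filter. With its transcript rows, SNHG1 had 30.9, 35.6 and 37.0 CPM in the KO, against 30.3, 35.9 and 18.5 CPM in WT. The groups then overlapped (log2FC 0.29, SE 0.24, edgeR adjusted p = 0.553), and without ZNFX1 KO 1 the gene row's log2FC was 1.95. The gene row held 15.5, 2.88 and 1.87% of the fragments of SNHG1 in the KO, against 0, 0.737 and 2.02% in WT.

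A single transcript row of SNHG1 showed the same pattern, and it was chosen after its values were seen. ENST00000545920.2 had 147, 77.3 and 199.98 fragments in ZNFX1 KO 1 to 3 and 0 fragments in each WT library. With each WT library set to a floor of 3 fragments, the KO mean of this row was 49.2-fold higher. The row was not called among all rows (edgeR adjusted p = 0.163). Of the 7 SNHG1 transcript rows tested, 3 had a log2FC above 0 and 4 below 0, and 0 passed, where 0.00544% of all rows did. Intervals and floors cover counting error only. They leave out how Salmon shares fragments among overlapping transcripts, so the fold is no lower bound.

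SNHG8, host of SNORA24, and SNHG15, host of SNORA9, lay below WT 1 and WT 2 in all KO libraries. WT 3 lay below every KO library for SNHG8 and inside the KO range for SNHG15. The gene row of SNHG8 had 23.3, 16.2 and 27.6 CPM in ZNFX1 KO 1 to 3, against 48.5, 55.5 and 14.8 CPM in WT 1 to 3. Its log2FC was -0.82 (SE 0.44, adjusted p = 0.402), and -0.73 (SE 0.37, adjusted p = 0.361) with the transcript rows. The gene row of SNHG15 had 14.9, 9.75 and 18.5 CPM in the KO, against 30.8, 38.4 and 15.4 CPM in WT. Its log2FC was -0.97 (SE 0.36, adjusted p = 0.270), and -0.49 (SE 0.24, adjusted p = 0.349) with the transcript rows. Without WT 3 both passed, SNHG8 at -1.20 (edgeR adjusted p = 0.0268) and SNHG15 at -1.25 (adjusted p = 0.0331). Without WT 2 they were at -0.50 (adjusted p = 0.825) and -0.68 (adjusted p = 0.644). With the transcript rows and without WT 3, SNHG8 was at -1.07 (adjusted p = 0.0138) and SNHG15 at -0.67 (adjusted p = 0.0459). With these rows and without WT 2 they were at -0.49 (adjusted p = 0.756) and -0.35 (adjusted p = 0.733). Without WT 3, however, 4.93% of all gene rows tested passed as lower, and 13.5% of all joined rows passed in either direction. The gene row's share of SNHG15 fragments was 51.7, 38.7 and 51.3% in the KO, against 65.1, 75.9 and 53.0% in WT. They did not overlap either, and how often such shares lie apart over all genes was not computed.

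SNHG12 and SNHG6 also had negative values of log2FC. SNHG12, host of SNORA16A, SNORA44, SNORA61 and SNORD99, had 6.26, 4.11 and 3.38 CPM in its gene row in ZNFX1 KO 1 to 3, against 8.52, 10.1 and 6.09 CPM in WT 1 to 3 (log2FC -0.84, SE 0.31, edgeR adjusted p = 0.275). Most of its fragments were again in transcript rows, and summed it had 29.3, 23.7 and 26.8 CPM in the KO, against 30.3, 33.9 and 35.6 CPM in WT. The KO libraries then all lay below the WT libraries, yet the step was small (log2FC -0.32, SE 0.16, edgeR adjusted p = 0.354). SNHG6, host of SNORD87, had 57.0, 42.2 and 46.9 CPM in the KO with its transcript rows, against 69.9, 74.5 and 46.5 CPM in WT. The groups overlapped at WT 3 (log2FC -0.39, SE 0.21, edgeR adjusted p = 0.387).

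SNHG16, host of SNORD1A, SNORD1B and SNORD1C, and SNHG5, host of SNORD50B, were the lowest of the 10 genes and showed no common direction. SNHG16 had 15.1, 10.3 and 16.7 CPM with its transcript rows in ZNFX1 KO 1 to 3, against 11.6, 10.4 and 14.2 CPM in WT 1 to 3. Its log2FC was 0.22 (SE 0.23, adjusted p = 0.642) with these rows and -0.09 (SE 0.32, adjusted p = 0.910) in the gene row alone. SNHG5 had 4.79, 3.17 and 1.57 CPM in the KO, against 4.05, 5.82 and 1.87 CPM in WT. Both groups spread over about the same range (log2FC -0.29, SE 0.49, edgeR adjusted p = 0.786, and -0.07, SE 0.55, adjusted p = 0.960 in the gene row).

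**Figure D3:**
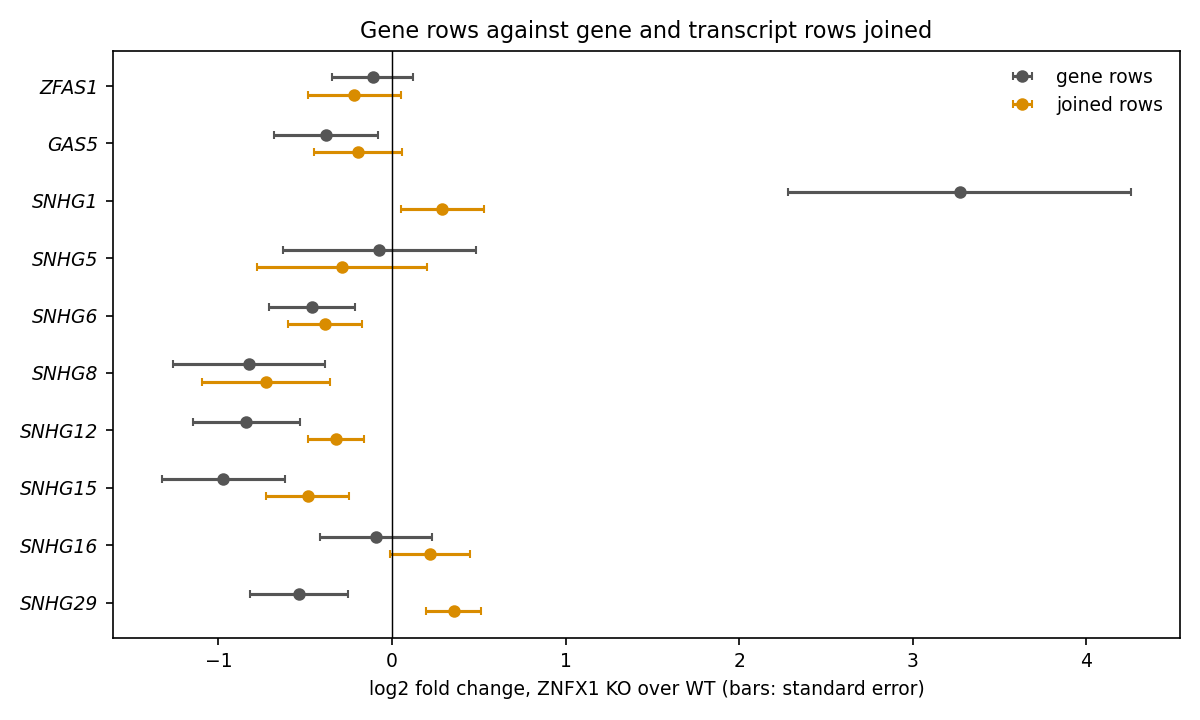
Log2FC of each gene, ZNFX1 KO over WT, with its standard error, for the gene row alone (grey) and with transcript rows joined (orange). SNHG29 lies at -0.53 in the gene row and at 0.35 joined, and SNHG1 at 3.27 and 0.29.

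Over the gene rows, 0 of the 10 were called at an adjusted p under 0.05, where 0.727% of all 14166 gene rows tested were (103 genes). At an unadjusted p under 0.05 there were 3 (SNHG1, SNHG12 and SNHG15), where 15.1% of all gene rows were. The DESeq2 Wald test called 1, SNHG1, as higher, where 1.67% of all gene rows were called higher. By CPM only SNHG1 had groups that did not overlap, higher in the KO, where 9.4% of all gene rows had. By TPM of the gene row SNHG6 had groups apart, lower in the KO (50.5 to 59.36 TPM in the KO, against 59.37 to 82.7 TPM in WT). So had SNHG29 (9.07 to 9.76 TPM in the KO, against 11.0 to 15.8 TPM in WT). By CPM 10.8% of all gene rows were apart and lower, and the share by TPM was not computed. Values of log2FC were below 0 for 9 of 10, where 51.2% of all were, and their median was -0.42 beside -0.012 over all. Without WT 2 the median was -0.25 with 7 of 10 below 0, and without WT 3 it was -0.65. The count of 103 was itself 2 without ZNFX1 KO 2, 7 without ZNFX1 KO 3, 24 without WT 1, 57 without WT 2 and 1315 without WT 3.

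With the transcript rows joined, again 0 of the 10 passed, where 1.27% of all 14743 genes tested did. That share ran from 0.0591% without ZNFX1 KO 2 to 13.5% without WT 3. At an unadjusted p under 0.05 there was 1, SNHG29, where 16.4% of all genes were. By CPM SNHG12 had groups apart and lower in the KO, where 11.3% of all genes had, and SNHG29 had groups apart and higher, where 9.52% of all genes had. By TPM SNHG29 (56.78 to 64.4 TPM in the KO, against 38.5 to 56.72 TPM in WT) was apart in the same direction. SNHG6 (82.5 to 95.3 TPM in the KO, against 101 to 121 TPM in WT) was apart and lower, and SNHG12 overlapped. The shares of all genes apart by TPM were not computed. The log2FC values were below 0 for 7 of 10, where 51.2% of all were, with a median of -0.25 beside -0.012 over all. Without WT 2 the median of the 10 was 0.03 and 4 of 10 were below 0, and without WT 3 it was -0.44.

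Of the 125 transcript rows of the 10 genes, 43 could be tested and 0 passed, where 0.00544% of all 36792 rows did. Values of log2FC were above 0 for 27 and below 0 for 16 of them, where 50.4% of all rows were below 0. Groups did not overlap and were higher in the KO for 3, 1 each of GAS5, SNHG1 and SNHG6, where 7.71% of all rows tested were. Which transcripts the authors' gene rows sum is not given in the sources used here.

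The WT libraries spread further than the KO libraries for 7 of the 10 genes (SD of CPM, joined rows), the exceptions being SNHG12, SNHG16 and SNHG29. Taking each gene's log2-CPM (joined rows) minus its mean of 6 libraries, the median of the 10 genes was -0.00042, -0.22 and -0.065 in KO libraries 1 to 3, against 0.26, 0.48 and -0.40 in WT libraries 1 to 3. Thus the highest and the lowest library were both WT. WT 2 was the highest library for 6 of the 10 genes. WT 3 and ZNFX1 KO 2 were each the lowest for 4. ZFAS1, GAS5 and SNHG8 had both WT 2 highest and WT 3 lowest. Among the others, WT 1 was the lowest library for SNHG29 and WT 3 the highest for SNHG12.

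**Figure D4:**
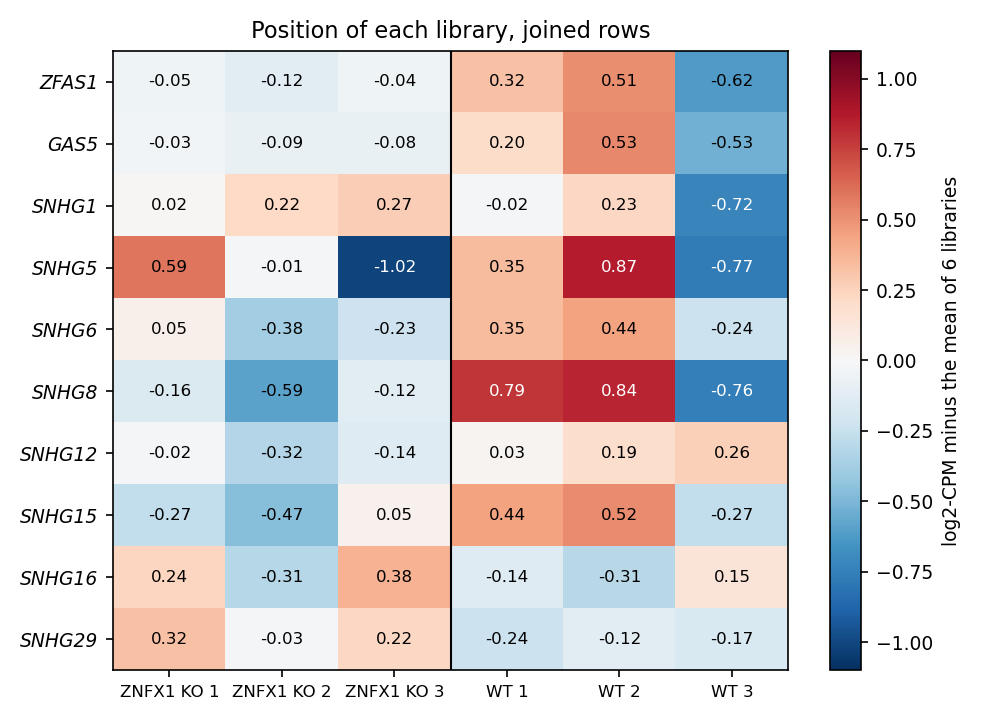
Log2-CPM of each gene (joined rows) minus its mean over 6 libraries, ZNFX1 KO libraries left of WT libraries, with red above and blue below the mean. WT 2 is red for ZFAS1 (0.51), GAS5 (0.53) and SNHG8 (0.84), where WT 3 is blue (-0.62, -0.53 and -0.76).

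The snoRNAs themselves were hardly measured. GENCODE 29 places 25 snoRNA genes with a row in the files inside the 10 genes on their strand, 19 of them named SNORD (box C/D) and 6 SNORA (box H/ACA). None of the 25 lies inside GAS5. Of the 25 rows, 14 were at 0 in all 6 libraries, which allows at most 0.137 to 0.156 CPM a library at a floor of 3 fragments. The 3 snoRNAs of ZFAS1 printed above had 1 fragment (SNORD12C), 3 fragments (SNORD12B) and 0 fragments (SNORD12) in all libraries together. Their effective length in Salmon, the number of places a fragment could start, averaged 7.43 to 21.3 bases over the 25 rows.

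Among the snoRNA rows 5 were high enough to test, and 0 passed, where 0.727% of all gene rows tested did. SNORD22 of SNHG1 was at 3.47 ± 0.442 CPM in the KO and 2.52 ± 0.909 CPM in WT (log2FC 0.46, SE 0.34, edgeR adjusted p = 0.534). SNORA9 of SNHG15 was at 0.462 ± 0.118 CPM in the KO and 0.904 ± 0.425 CPM in WT (log2FC -0.92, SE 0.48, edgeR adjusted p = 0.399). SNORA61 of SNHG12 was at 4.18 ± 0.994 CPM in the KO and 4.19 ± 1.02 CPM in WT (log2FC -0.00094). SNORA44, also of SNHG12, was at log2FC -0.26 (SE 0.43), and SNORA24 of SNHG8 at -0.34 (SE 0.50). Fragments on these rows can also come from the unspliced host RNA. At these counts and effective lengths a change in most of the mature snoRNAs was not detectable.

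Genes with related roles are given by lists, and 0 members of any of the 6 lists passed on the gene rows, where 0.727% of all did. Of 18 other noncoding snoRNA hosts 15 could be tested, with a median log2FC of -0.0019. None of the 15 had an unadjusted p under 0.05, where 15.1% of all gene rows had. Their most abundant members were SNHG14 (51.4 ± 9.79 CPM in the KO and 47.7 ± 9.06 CPM in WT, log2FC 0.11, SE 0.21) and SNHG4 (50.6 ± 6.67 CPM in the KO and 36.7 ± 18.1 CPM in WT, 0.46, SE 0.36). With 1 library left out their median ran from -0.13 to 0.18. The 38 protein-coding snoRNA hosts had a median of 0.07 (0.013 to 0.12 with 1 library left out). Among them HSPA8, a constitutive heat shock protein 70 chaperone, had 3623, 3172 and 3551 CPM in the KO, against 1582, 722 and 3456 CPM in WT. WT 3 lay within the KO range. The log2FC of HSPA8 was 0.84 (SE 0.47, edgeR adjusted p = 0.420), and 0.45 without WT 2 (adjusted p = 0.754). It passed without WT 3 (1.60, edgeR adjusted p = 0.0307), where 4.09% of all gene rows tested passed as higher. EEF2, the ribosomal translocase, was at 2224 ± 327 CPM in the KO and 2623 ± 567 CPM in WT (-0.24, SE 0.23).

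The 17 translation genes with a TOP tract, ribosomal protein genes left out, had a median log2FC of 0.03 (0.012 to 0.11 with 1 library left out). EEF1A1, the elongation factor that brings tRNA to the ribosome, was at 7523 ± 761 CPM in the KO and 7255 ± 1209 CPM in WT (log2FC 0.05, SE 0.21). EEF1G, a subunit of its exchange factor, was at 2292 ± 241 CPM in the KO and 2611 ± 355 CPM in WT (-0.19, SE 0.19). The 16 genes of snoRNA-protein particles and their assembly had a median of 0.18, with 4 of 16 below 0, where 51.2% of all gene rows were, and 0 at an unadjusted p under 0.05, where 15.1% of all were. Without WT 2 the median was 0.063 with 7 of 16 below 0, and without WT 3 it was 0.34. NOP10, of the H/ACA particle, was at 0.04 (SE 0.20), and NOLC1, a nucleolar chaperone of snoRNPs, at 0.46 (SE 0.26).

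The NMD machinery and its mRNA targets differed in their values. The 16 NMD factors and exon junction proteins had a median log2FC of -0.04 (-0.038 to 0.059 with 1 library left out), with SMG1, the kinase of UPF1, at -0.15 (SE 0.22) and SMG5, which joins phosphorylated UPF1, at -0.31 (SE 0.19). The 8 mRNAs known as NMD targets had a median of -1.03, with 7 of 8 below 0, where 51.2% of all gene rows were. At an unadjusted p under 0.05 there were 4 (GADD45A, GADD45B, ATF3 and UPP1), where 15.1% of all were, and 0 passed after adjustment, where 0.727% of all did. ATF4 and ASNS were named by rule, and the others after their values were seen. Several of the 8, ATF4, ATF3, DDIT3 and ASNS among them, are also known as genes of the integrated stress response.

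Several of these mRNAs were high in WT 1 and WT 2 and low in WT 3, as ZFAS1 was. GADD45A, a DNA damage and growth arrest protein, had 25.0, 21.5 and 20.6 CPM in ZNFX1 KO 1 to 3, against 49.1, 73.4 and 24.7 CPM in WT 1 to 3 (log2FC -1.13, SE 0.35, edgeR adjusted p = 0.203). It passed with the DESeq2 Wald test (-1.12, adjusted p = 0.0396), where 2.41% of all gene rows were called lower. ASNS, asparagine synthetase, had 265, 212 and 236 CPM in the KO, against 431, 528 and 199 CPM in WT (-0.70, SE 0.32, edgeR adjusted p = 0.351). In both genes WT 1 and WT 2 lay above every KO library, while WT 3 lay within the KO range for GADD45A and below it for ASNS. Without WT 2 the log2FC was -0.72 for GADD45A (adjusted p = 0.486) and -0.41 for ASNS (adjusted p = 0.784).

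ATF4, the transcription factor of that response, was at 390.3 ± 37.5 CPM in the KO and 393 ± 63.1 CPM in WT (-0.01, SE 0.18). DDIT3 was at -1.03 (SE 0.57), ATF3 at -1.03 (SE 0.41), GADD45B at -1.11 (SE 0.45), UPP1 at -1.26 (SE 0.44) and TBL2 at 0.03 (SE 0.18). Without WT 3, 5 of the 8 passed as lower (GADD45A, GADD45B, ATF3, DDIT3 and ASNS), where 4.93% of all gene rows passed as lower. Without WT 2 the median of the 8 was -0.50. Per library, the median position of the list (gene rows) was -0.33, -0.40 and -0.27 in ZNFX1 KO 1 to 3, against 0.60, 1.16 and -0.45 in WT 1 to 3. WT 2 was highest and WT 3 lowest, as for the 10 host genes, whose positions use joined rows.

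**Figure D5:**
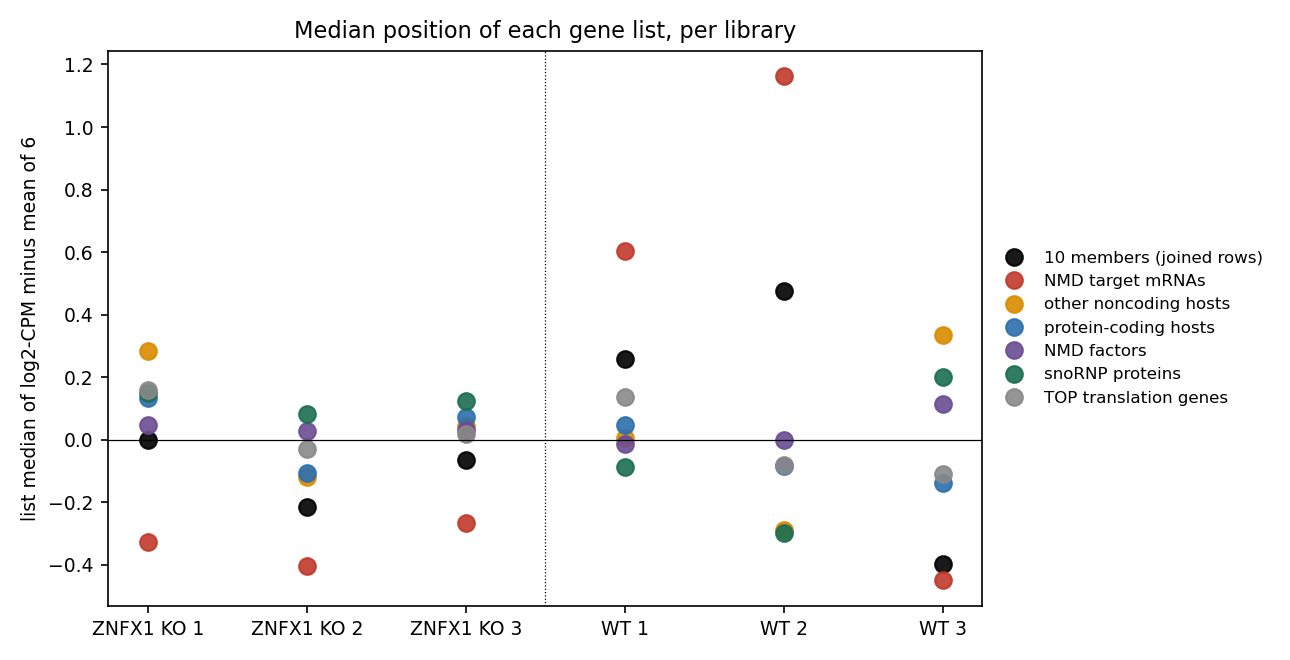
Median over each gene list of log2-CPM minus the gene's mean of 6 libraries, ZNFX1 KO libraries left of WT libraries. The lists use gene rows and the 10 host genes use joined rows, so their values are not on the same table. NMD target mRNAs reach 1.16 and the 10 host genes 0.48 in WT 2, and both are below 0 in WT 3 (-0.45 and -0.40), while the other lists stay between -0.30 and 0.34.

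The genes whose log2-CPM over the 6 libraries was most like that of ZFAS1 were named by Pearson's r among 9169 genes with a mean of at least 10 CPM, as a description over 6 libraries that share depth and composition. PTPRH, a receptor-type tyrosine phosphatase, came first (r = 0.999), followed by PPM1M, a protein phosphatase (0.994), ARHGEF2, a guanine nucleotide exchange factor for RhoA (0.994), KLHDC2, a substrate receptor of a ubiquitin ligase (0.991), and STX5, a syntaxin of the Golgi (0.991). PTPRH had 26.6, 24.7 and 28.7 CPM in the KO, against 42.7, 56.1 and 13.2 CPM in WT. GAS5 was the closest of the host genes, at rank 7 (r = 0.988), and SNHG8 followed at rank 136 (0.930). SNHG6 (r = 0.811), SNHG15 (0.800) and SNHG1 (0.716) came at ranks 642, 715 and 1182. SNHG12 (r = -0.03), SNHG29 (-0.12) and SNHG16 (-0.49) came at ranks 4358, 4682 and 6148, and SNHG5 was too low to rank. ZNFX1, the head-to-head neighbour, stood at rank 1915 (r = 0.588).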

How the data were processed

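Total RNA of 3 ZNFX1 KO and 3 WT samples was sequenced after a stranded library preparation, per the labels. The submitters' processing notes name FastQC, Trimmomatic, Salmon and DESeq2. No genome build or annotation release is given in the sources used here. The deposited files hold, per the labels, estimated counts of fragments and TPM values that the authors made with Salmon. Each has 197169 rows, and transcript rows hold 9.93 to 10.7% of a library's fragments. Of these rows 103521 were joined to a gene by ID, without version, through GENCODE 29 (GRCh38). The 31040 not in it hold at most 1.95% of fragments.

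The estimates were rounded, filtered with filterByExpr, scaled by TMM (factors 0.958 to 1.04) and tested with the quasi-likelihood test of edgeR 4.0.16 (two-sided, genotype only, R 4.3.3), with Benjamini-Hochberg adjustment over all rows tested and a threshold of 0.05. The fit was made on gene rows (14166), on joined rows (14743) and on every row (36792). SE is the size of the log2 fold change over the root of the test's F. CPM values use TMM-scaled totals of the table in question. The positions of libraries relative to a gene's mean use log2-CPM without a prior count, with values at 0 left out. The correlations of deviations between KO and WT libraries use log2-CPM with a prior count of 2. In counts simulated for ZNFX1 KO against WT on gene rows (13909 genes, changed ones at 2 CPM or more), 21% of 2-fold and 90% of 4-fold changes were recovered. On joined rows (14469 genes) these were 44% and 98%, and on every row (32804) 3% and 38%. No library was a duplicate: pairs within a group had a chi-square of at least 30.3 times its degrees of freedom.

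The members and gene lists were chosen with earlier results of these data known. Named genes were the members, ZNFX1, tested snoRNA rows, called members and the 2 most abundant of each list, and the 5 genes most like ZFAS1. Others are said to be named after their values were seen. The alternatives were DESeq2 1.42.0, its size factors, library totals, no filter, at least 1 CPM in 3 libraries, limma 3.58.1 (voom, log2(TPM + 1) and log2(TPM + 0.1)), an effective length offset, the replicate block, no mitochondrial or small structured RNAs, joined rows, and leaving out each library.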

Additional observations from a re-analysis of the deposited data

How the results depend on the processing

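The count of 103 genes was 602 with no filter on low counts, 579 with DESeq2, 48 on log2(TPM + 1), 66 on log2(TPM + 0.1), 187 on joined rows, 14 with the replicate block, and 2 to 1315 with 1 library left out. The count of members was 1 with no filter and 1 with DESeq2 (SNHG1 both times), and 0 to 2 with 1 library left out, on gene rows and on joined rows (SNHG8 and SNHG15 without WT 3). The labels do not say that same-numbered libraries were paired. Their deviations correlated at 0.129, -0.041 and 0.0069, and those of differently numbered libraries at -0.096 to 0.093. With 3 libraries a group, these values cannot show whether there was a pairing. The replicate block left ZFAS1 at -0.10 in the gene row and -0.14 joined.

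ZFAS1 turned sign on the log2(TPM + 1) scale (0.000857) and the log2(TPM + 0.1) scale (0.000640), and ran from -0.27 to 0.063 with 1 library left out (joined rows -0.47 to 0.0054). Other log2 fold changes that turned sign did so without passing the threshold on either side. Under other scalings or filters these were ENST00000417721.5 (library totals -0.061, at least 1 CPM -0.017), SNHG5 (voom 0.000304), SNHG16 (joined 0.22), SNHG29 (joined 0.35), EEF1A1 (library totals -0.00718), NOP10 (library totals -0.024) and ATF4 (no filter 0.017, TPM scales 0.028 and 0.028). TBL2 was at -0.040 with library totals, -0.061 with the length offset, -0.020 and -0.024 on the TPM scales and -0.069 on joined rows. SNORA61 was at 0.010 with DESeq2 size factors, 0.011 with the DESeq2 test, voom and joined rows, 0.00458 with the length offset, 0.030 with no filter, 0.035 and 0.036 on the TPM scales and 0.00368 with the replicate block.

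With 1 library left out the ranges were -0.24 to 0.20 for ENST00000417721.5, -0.59 to 0.011 for ENST00000428008.6, -0.65 to 0.39 for SNHG5 (joined -0.71 to 0.11), -0.25 to 0.15 for SNHG16, -0.42 to 0.049 for GAS5 joined, -0.032 to 0.29 for SNHG14, -0.050 to 0.17 for EEF1A1, -0.11 to 0.11 for ATF4, -0.044 to 0.10 for TBL2, -0.056 to 0.20 for NOP10, -0.83 to 0.045 for SNORA24 and -0.18 to 0.17 for SNORA61. The causes were not tested. Of 248 values of members under alternatives, 226 kept direction and side of the threshold, 6 passed it and 16 turned sign. Alternatives on transcript rows, and on joined rows of members other than ZFAS1, were chosen after seeing the data. With 3 libraries a group, changes of 2-fold were mostly below what the simulation recovered.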
